A study of Caenorhabditis elegans with 16 samples.

Results

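The comparison described here sets germline-less worms fed mxl-2 RNAi against germline-less worms fed mml-1 RNAi. It holds 8 of the 16 RNA-seq libraries of the study, chosen by their labels alone: 4 labelled mxl-2 RNAi and 4 labelled mml-1 RNAi, numbered 1 to 4 in each group. All are whole-body RNA of Caenorhabditis elegans at adult day 1, from worms kept on NGM plates and fed HT115 (DE3) bacteria whose L4440 plasmid makes double-stranded RNA. Animals of both groups carry a glp-1 mutation (strain SHU47 by the labels, allele not given in the sources used here) in the background of TU3401. Loss of the Notch receptor GLP-1 removes the germline. TU3401, as known from the field, has the channel for double-stranded RNA, SID-1, in neurons alone, so RNAi by feeding acts mainly there, while the RNA measured came from all tissues. Another 4 libraries of the same glp-1 strain on Luc RNAi, the control feeding, are given beside the comparison, and the 4 libraries of TU3401 with a germline serve only to check germline transcripts. The sources used here do not say whether the replicates were separate cultures, so p-values measure the spread between these libraries, which may be technical.

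MML-1, a relative of the mammalian Mondo proteins ChREBP and MondoA, and MXL-2, a relative of Mlx, are basic helix-loop-helix leucine zipper proteins that bind DNA as partners. In worms without a germline both are known to be required for long life, together with HLH-30, the relative of TFEB that controls autophagy and lysosome genes. The title of the study links the neuronal pair to autophagy, peroxidase activity and a glutamate transporter. The question put to these libraries is whether RNAi of one partner leaves a different whole-body transcriptome from RNAi of the other.

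No gene passed the test between the 2 knockdowns, and for most genes the data limit how far apart the groups can be. Of 12540 genes and loci with a mean of at least 1 RPKM (reads scaled to the coding length of the gene and to the depth of the library), 0 were called higher and 0 lower on mxl-2 RNAi at a limma adjusted p under 0.05, a share of 0% in each direction, and the lowest adjusted p was 0.527. At an unadjusted p under 0.05, 525 genes (4.19%) were higher and 347 (2.77%) lower, 872 in all (6.95%), where the threshold by itself lets through 627. The 95% interval of the log2 fold change lay wholly within a 2-fold change in either direction for 11921 genes (95.1%), and within a 1.41-fold change for 9660 genes (77.0%). Fold changes and 2-fold bounds here are of RPKM + 1 unless another scale is named. For genes of low RPKM they understate the change in RPKM itself. With 0.1 added in place of 1, 11384 genes (90.8%) had an interval within 2-fold. The log2 fold changes, on the scale of log2(RPKM + 1), had a median of 0.01 over all genes, and the middle 95% ran from -0.41 to 0.35. An analysis of the same libraries as whole reads by voom called 1 gene, chil-28 (limma adjusted p = 0.0404).

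Precision followed the level of a gene. The median half-width of the 95% interval was 0.24 on the log2 scale, a 1.18-fold change. Among the 3744 genes between 1 and 5 RPKM the median half-width was 0.34, and 90.3% had an interval inside a 2-fold change. This bound is of RPKM + 1, so at such levels a 2-fold change of RPKM itself can lie inside it. From 5 to 20 RPKM (4270 genes) the half-width was 0.23 and the share 96.8%, from 20 to 100 RPKM (3177 genes) 0.18 and 97.2%, and from 100 RPKM up (1349 genes) 0.14 and 97.9%. Of the 619 genes whose interval reached past 2-fold, 236 were piRNA loci, which are 21 bases long, so that 1 read is worth 1.89 to 2.47 RPKM there. The 619 had a median of 3.43 RPKM, against 12.03 RPKM for the others.

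**Figure D1:**
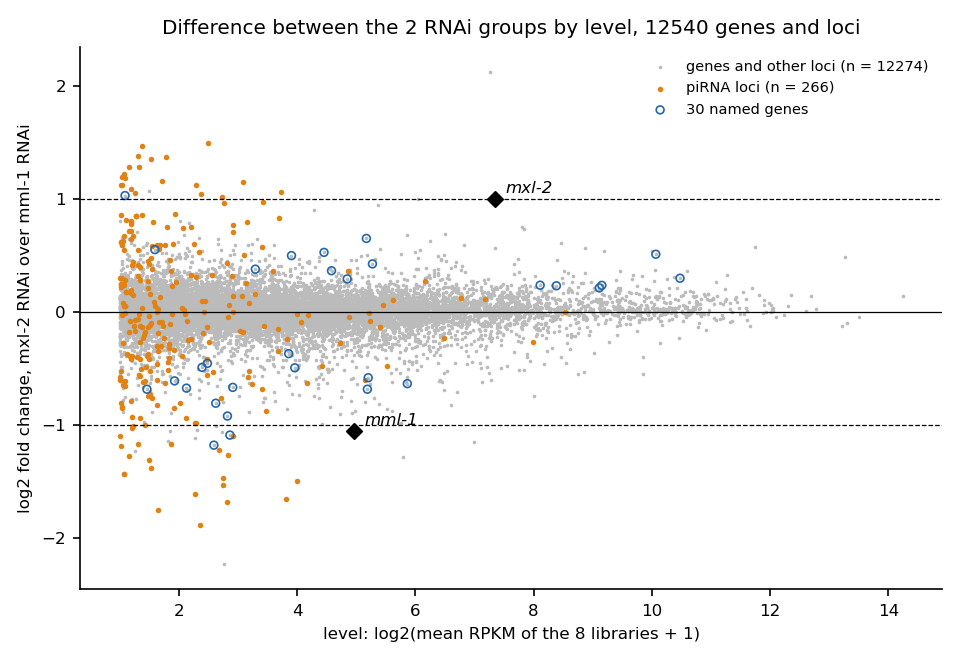
Each point is a gene or locus, with its level, log2(mean RPKM of the 8 libraries + 1), on the horizontal axis and the log2 fold change of mxl-2 RNAi over mml-1 RNAi on the vertical axis; piRNA loci are orange, the 30 genes named by rule are circled and the 2 target genes are diamonds. The dashed lines mark a 2-fold change of RPKM + 1, which 58 genes and loci reach, 42 of them piRNA loci.

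The libraries were of similar depth, and their cell type markers were at similar levels. The totals recovered from the deposited values ran from 19242986 to 25139007 reads. Of 38 germline genes checked (perm-2 and perm-4 left out), 31 had a mean under 5 RPKM, and the 38 summed to 185 to 234 RPKM in the 8 libraries, against 18051 to 18925 RPKM in TU3401 with a germline. All 40 genes of the list summed to 8066 to 9084 RPKM on mml-1 RNAi and 7572 to 9245 RPKM on mxl-2 RNAi. In TU3401 with a germline they summed to 21757 to 22748 RPKM. Most RNA of the list in the 8 libraries was thus that of perm-2 and perm-4, which did not show this drop. Marker genes of neurons summed to 2040.1 to 2222 RPKM on mml-1 RNAi and 2055 to 2284 RPKM on mxl-2 RNAi. RNA of these genes was thus present in both, a large part of it from tbh-1, whose values are given below. Marker genes of muscle summed to 12494 to 14467 and 12118 to 13371 RPKM in the same order, of intestine to 22045 to 25988 and 21387 to 25168 RPKM, and of hypodermis to 1699 to 2321 and 1665 to 2334 RPKM. In whole-body RNA, fewer cells of a type and less RNA per cell cannot be told apart.

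Libraries of the same number resembled each other more than libraries of the same RNAi. The replicate number held 71.0% of the variation of the 8 libraries over all genes (3 degrees of freedom), the RNAi 7.76% (1 degree of freedom) and the rest 21.2% (3 degrees of freedom). The labels do not say what the numbers share. By the rule set for it, the comparison is read within pairs of the same number. Without this pairing 0 genes were called and 111 had an unadjusted p under 0.05. The pairs were unequal: 326, 482, 250 and 175 genes differed at least 2-fold in RPKM + 1 in pairs 1 to 4. The median absolute log2 difference was 0.14, 0.19, 0.13 and 0.10. Of all genes, 1976 (15.8%) had the same direction in the 4 pairs, and for 85 (0.678%) the 4 libraries of one group did not overlap the 4 of the other.

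The target genes had no lower mean than the control in the libraries labelled with their knockdown, and 1 library went against its label. Several others lay within the range of the control for their own target. In the libraries labelled mml-1 RNAi, numbers 1 to 4, the level of mml-1 (chromosome III, 7370130 to 7374731, WBcel235) was 23.8, 91.5, 28.9 and 22.9 RPKM. With the label mxl-2 RNAi it was 37.3, 15.9, 9.81 and 11.7 RPKM, and on Luc RNAi 35.2, 24.0, 11.9 and 11.2 RPKM. Number 2 was the high library of the mml-1 RNAi group, the groups overlapped, and in 3 of 4 pairs the level of mml-1 was higher where mml-1 was the labelled target. Numbers 1, 3 and 4 of the mml-1 RNAi group lay within the range of the Luc libraries. The log2 fold change of mxl-2 RNAi over mml-1 RNAi was -1.05 (SE 0.49, 95% interval -2.28 to 0.18, limma adjusted p = 0.715), and -0.58 without pair 2.

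The level of mxl-2 (chromosome III, 186949 to 188131) was 26.4, 26.98, 308 and 25.4 RPKM with the label mml-1 RNAi. With the label mxl-2 RNAi it was 29.3, 90.7, 733 and 47.4 RPKM, and on Luc RNAi 24.5, 30.3, 20.99 and 22.9 RPKM. All 4 pairs were higher on mxl-2 RNAi, with a log2 fold change of 0.99 (SE 0.25, 95% interval 0.36 to 1.63, limma adjusted p = 0.705), and 0.91 without pair 3. Without the pairing it was 0.03 when mxl-2 RNAi 3 was left out and 1.87 when mml-1 RNAi 3 was. The library labelled mml-1 RNAi 3 held more mxl-2 reads per length than any library labelled mxl-2 RNAi except number 3, while the others of its group lay within the range of the control. Library mxl-2 RNAi 1, at 29.3 RPKM of mxl-2, also lay within the range of the control, so this level does not bear out its label. In these tables, reads of the double-stranded RNA fed to the worms cannot be told apart from reads of the worms' own transcripts, so for both targets the level and its log2 fold change may not be those of the transcript. For mml-1 RNAi 3, a swapped or mixed culture cannot be told apart from such reads either. Results below are given by the labels. Without pair 3, 0 genes were called, 415 had an unadjusted p under 0.05, and 11733 of 12650 genes had an interval within 2-fold. Without pair 1 these numbers were 0, 1005 and 11787 of 12550 genes.

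**Figure D2:**
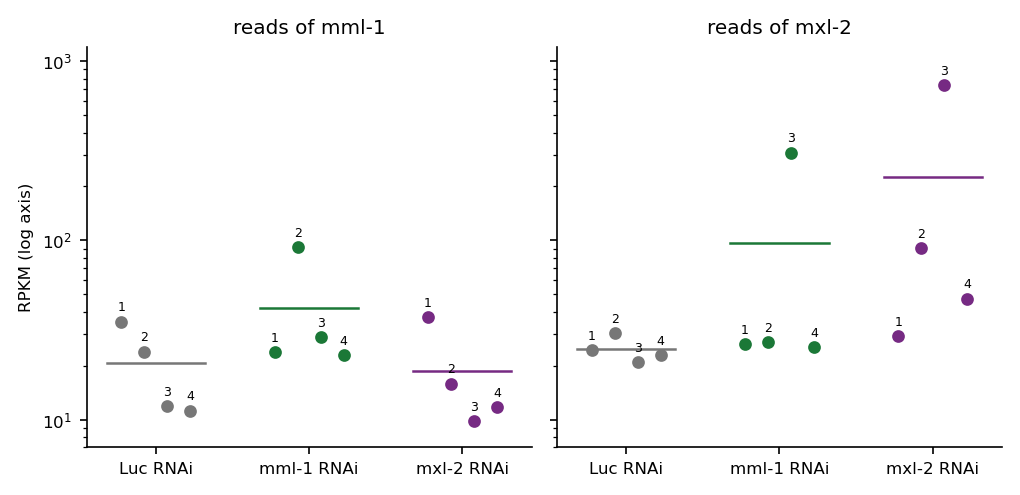
RPKM of mml-1 (left) and mxl-2 (right) on a log axis in the 12 libraries of glp-1 worms, grouped as Luc, mml-1 and mxl-2 RNAi. Neither gene has a lower mean in its own knockdown than on Luc RNAi, and the mml-1 RNAi library number 3 stands at 308 RPKM of mxl-2, far above the others of its group.

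No gene passed the adjusted test, so the 30 genes named next are those with the smallest unadjusted p, 15 in each direction, among genes that differed the same way in all 4 pairs. Their adjusted p ranged from 0.527 to 0.705, and their direction was fixed by this choice. In 4 of them the groups did not overlap, beside 0.678% of all genes. On the scale of log2(RPKM + 1), 3 differed at least 2-fold, beside 0.463%, and in RPKM itself more did. Nothing is read from these counts, since the choice by p and direction favours both. Without pair 3 the log2 fold changes were 0.21 to 0.93 for the 15 higher ones and -1.09 to -0.38 for the 15 lower ones; their sign there follows from the choice and shows nothing of stability.

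On the side of higher values on mxl-2 RNAi, the saposin-like gene spp-2 (chromosome X, 7315995 to 7316818), of a family of small proteins that act on membranes, had the smallest p of the named genes. It stood at 573, 1132, 1133 and 692 RPKM on mml-1 RNAi and at 888, 1611, 1648 and 888 RPKM on mxl-2 RNAi. Each library on mxl-2 RNAi stood above the library of its own number, while the groups overlapped because numbers 2 and 3 were high in both. The log2 fold change was 0.51 (SE 0.05, 95% interval 0.38 to 0.64, limma adjusted p = 0.527), and the Luc libraries had a mean of 1312 ± 423 RPKM (SD, n = 4).

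A pair of transthyretin-related genes, which belong to a large nematode family of secreted proteins, were among the 15. For ttr-6 (chromosome X, 6596425 to 6597121) the values were 439.9, 545, 544 and 562 RPKM on mml-1 RNAi and 539.8, 641, 653 and 624 RPKM on mxl-2 RNAi. For ttr-5 (chromosome III, 9330316 to 9330928) they were 297, 318, 346 and 262 RPKM on mml-1 RNAi and 355, 390.2, 405 and 292 RPKM on mxl-2 RNAi. The groups overlapped for both, and each pair was higher on mxl-2 RNAi. The log2 fold changes were 0.24 (SE 0.04) for ttr-6 and 0.23 (SE 0.04) for ttr-5, both with adjusted p = 0.705 in limma. Luc RNAi gave 642 ± 27.6 RPKM of ttr-6 and 398 ± 41.3 RPKM of ttr-5 (SD, n = 4), so the means on mxl-2 RNAi lay between those on mml-1 RNAi and Luc RNAi.

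The gene C03G6.5 had the largest difference of the 12 protein-coding genes on this side. It stood at 16.3, 25.3, 36.3 and 32.7 RPKM on mml-1 RNAi and at 35.8, 38.9, 48.5 and 46.8 RPKM on mxl-2 RNAi, where the lowest library was just under the highest of the other group. The log2 fold change was 0.65 (SE 0.12, 95% interval 0.35 to 0.95, limma adjusted p = 0.705), with 48.9 ± 9.99 RPKM on Luc RNAi (SD, n = 4). Among abundant genes, D1086.3 had 1277 ± 289.8 RPKM on mml-1 RNAi and 1569 ± 351 RPKM on mxl-2 RNAi (SD, n = 4; log2 fold change 0.30, SE 0.04). For E04F6.9 the means were 512 ± 64.5 and 593 ± 67.1 RPKM, and for Y37D8A.2 they were 253 ± 27.7 and 298 ± 31.7 RPKM.

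The other protein-coding genes on this side were at middle or low levels. F42G4.5 had means of 19.9 RPKM on mml-1 RNAi and 25.97 RPKM on mxl-2 RNAi, F35F10.5 had 17.2 and 24.7 RPKM, and C25F9.10 had 7.52 and 10.1 RPKM. For K02F2.5 the means were 24.8 and 30.8 RPKM, and for F44A2.7 they were 11.6 and 16.37 RPKM. Their log2 fold changes ran from 0.29 (K02F2.5) to 0.53 (F35F10.5).

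The remaining 3 of the 15 were non-coding. F43C9.8, annotated as a non-coding RNA, stood at 0.468, 0.784, 0 and 0.358 RPKM on mml-1 RNAi and at 1.90, 2.81, 1.48 and 1.24 RPKM on mxl-2 RNAi. These values rest on 0 to 6 reads a library. The groups did not overlap, and its log2 fold change was 1.03 (SE 0.15, limma adjusted p = 0.705). The long intergenic RNA linc-53 also had groups that did not overlap, with 1.13 to 1.62 RPKM on mml-1 RNAi and 2.16 to 3.08 RPKM on mxl-2 RNAi, from 5 to 14 reads a library. F22H10.9, another non-coding RNA, had 19.3 to 44.9 RPKM on mml-1 RNAi and 28.3 to 65.6 RPKM on mxl-2 RNAi.

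On the side of lower values on mxl-2 RNAi, the small heat shock gene hsp-12.6 (chromosome IV, 9446229 to 9447228), a known target of the longevity factor DAF-16, stood at 12.8, 9.67, 6.91 and 3.70 RPKM on mml-1 RNAi and at 7.11, 2.65, 3.71 and 2.07 RPKM on mxl-2 RNAi. Each pair showed a lower value on mxl-2 RNAi, and the groups overlapped. Its log2 fold change was -0.92 (SE 0.17, 95% interval -1.34 to -0.50, limma adjusted p = 0.705), and Luc RNAi gave 6.67 ± 2.58 RPKM (SD, n = 4).

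The chitinase-like gene chil-28, of a family known to respond to oomycetes, stood at 7.23, 18.9, 3.72 and 1.03 RPKM on mml-1 RNAi and at 2.05, 6.04, 0.763 and 0.588 RPKM on mxl-2 RNAi. Number 2 was the high library in both groups, and Luc RNAi gave 0.644 ± 0.273 RPKM (SD, n = 4). The log2 fold change was -1.18 (SE 0.22, 95% interval -1.71 to -0.64, limma adjusted p = 0.705), and -1.74 by voom on the recovered reads, where the limma adjusted p of 0.0404 passed. Over the 20 alternatives tried, its adjusted p in limma ran from 0.0404 to 1.00.

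A pair of Patched-related genes, ptr-22 and ptr-8, relatives of the receptor for hedgehog, were in this set. For ptr-22 the values were 32.2, 2.64, 2.78 and 0.597 RPKM on mml-1 RNAi and 10.6, 0.468, 0.601 and 0.311 RPKM on mxl-2 RNAi. For ptr-8 they were 90.9, 38.9, 22.8 and 18.6 RPKM on mml-1 RNAi and 66.5, 19.9, 13.6 and 15.5 RPKM on mxl-2 RNAi. Number 1 was the high library of both genes in both groups, and the groups overlapped. The log2 fold changes were -1.09 (SE 0.22) for ptr-22 and -0.58 (SE 0.12) for ptr-8, with adjusted p = 0.705 for both in limma.

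A pair of histone H4 genes were also on this side. For his-5 the values were 4.99, 12.4, 7.93 and 2.29 RPKM on mml-1 RNAi and 2.57, 4.997, 5.27 and 0.885 RPKM on mxl-2 RNAi. For his-18 they were 4.33, 3.91, 3.75 and 2.29 RPKM on mml-1 RNAi and 2.44, 2.998, 1.71 and 1.03 RPKM on mxl-2 RNAi. Histone genes have near-identical copies, so reads may be split between them and the values of single copies are uncertain. Of the 15 histone genes tested, 7 had a log2 fold change above 0 and 8 below, with a median of 0.00.

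The mucin-like gene mul-1 stood at 22.2, 23.3, 18.9 and 5.71 RPKM on mml-1 RNAi and at 14.1, 15.2, 12.5 and 4.78 RPKM on mxl-2 RNAi, with 5.28 ± 1.04 RPKM on Luc RNAi (SD, n = 4). The gene oig-1, whose immunoglobulin-domain protein acts at the synapses of motor neurons, had 5.14, 5.99, 4.51 and 6.25 RPKM on mml-1 RNAi and 3.98, 4.27, 2.98 and 3.67 RPKM on mxl-2 RNAi. Its groups did not overlap, from 30 to 65 reads a library, and its log2 fold change was -0.45 (SE 0.09, limma adjusted p = 0.705). B0496.11 (chromosome IV, 7433544 to 7433958) was the other gene on this side whose groups did not overlap, with 5.86, 4.47, 3.56 and 3.67 RPKM on mml-1 RNAi against 3.03, 2.40, 1.69 and 2.36 RPKM on mxl-2 RNAi, from 8 to 22 reads a library.

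For the remaining 6 genes of this side no role is given here. Y42G9A.3 had means of 70.5 RPKM on mml-1 RNAi and 44.0 RPKM on mxl-2 RNAi, C11G10.1 had 43.2 and 27.7 RPKM, and W02F12.2 had 15.3 and 11.7 RPKM. ZK402.3 had means of 8.32 and 4.74 RPKM, F29G9.2 had 5.16 and 3.35 RPKM, and the non-coding W10D5.5 had 2.40 and 1.11 RPKM. Their log2 fold changes were -0.63, -0.68, -0.37, -0.67, -0.49 and -0.68 in that order.

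**Figure D3:**
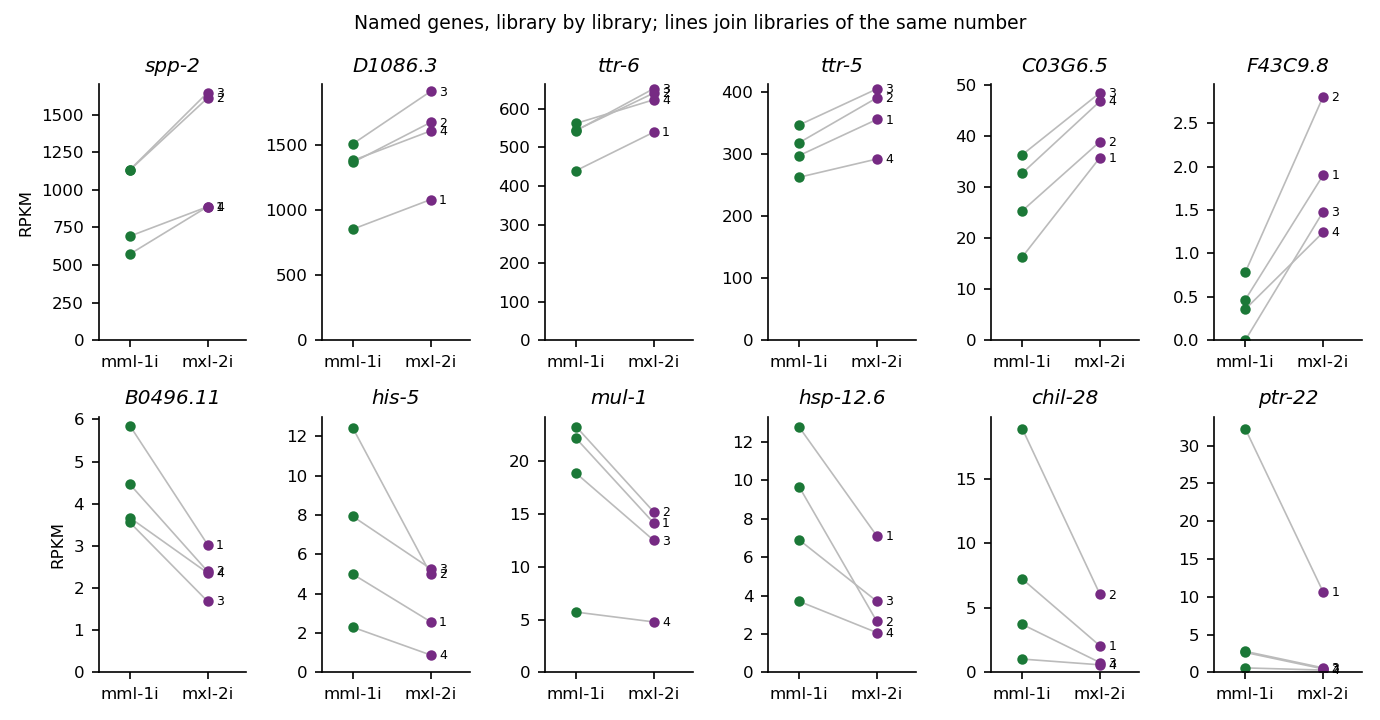
RPKM of 12 of the 30 named genes in each of the 8 libraries, with mml-1 RNAi (mml-1i) at the left and mxl-2 RNAi (mxl-2i) at the right of each panel and a line joining libraries of the same number. The lines run the same way in each panel by the rule that chose the genes, and numbers differ within a group, as for spp-2 with 573 to 1133 RPKM on mml-1 RNAi.

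A log2 fold change of at least 1 in either direction was found for 58 genes and loci (0.463%), 23 higher and 35 lower on mxl-2 RNAi. Of these, 42 were piRNA loci, 20 had the same direction in all 4 pairs, and 10 of the 20 were not piRNA loci. Those named in this paragraph were chosen after their values were seen. The largest difference above 0 was that of clx-1 (chromosome IV, 7734648 to 7736324), with 1.80, 15.5, 156 and 208 RPKM on mml-1 RNAi and 47.2, 92.2, 334 and 360.3 RPKM on mxl-2 RNAi. All 4 pairs were higher on mxl-2 RNAi, the groups overlapped, and the 4 Luc libraries stood at 235.4 to 816 RPKM. Its log2 fold change was 2.12 (SE 0.57, 95% interval 0.68 to 3.56, limma adjusted p = 0.705). The largest below 0 was that of F56A4.3 (chromosome V, 2453414 to 2456147), with 15.7, 0.137, 12.8 and 12.8 RPKM on mml-1 RNAi and 0, 0, 0.259 and 4.92 RPKM on mxl-2 RNAi (log2 fold change -2.23, SE 0.69, limma adjusted p = 0.705). Of all loci tested, the smallest p was that of F55H12.9, a small nucleolar RNA (chromosome I, 8866808 to 8866973), with means of 5.60 RPKM on mml-1 RNAi and 2.04 RPKM on mxl-2 RNAi (log2 fold change -1.11, SE 0.11, limma adjusted p = 0.527). F55H12.2, a gene near it on the same strand (8867940 to 8868296), had means of 163 and 88.3 RPKM.

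The lists that follow group genes by pathway and tissue. Of 42 lists, 41 had a member tested, and 0 lists had a called member among 1549 genes, beside 0% called over all genes. For 1486 of the 1549 the 95% interval lay within 2-fold. In the 38 lists with at least 6 members tested, the median log2 fold change ran from -0.08 (autophagy) to 0.09 (glutathione S-transferases), beside 0.01 over all genes. The 12 protein-coding genes of mitochondrial DNA were not found under the names looked for, so they were not analysed here.

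**Figure D4:**
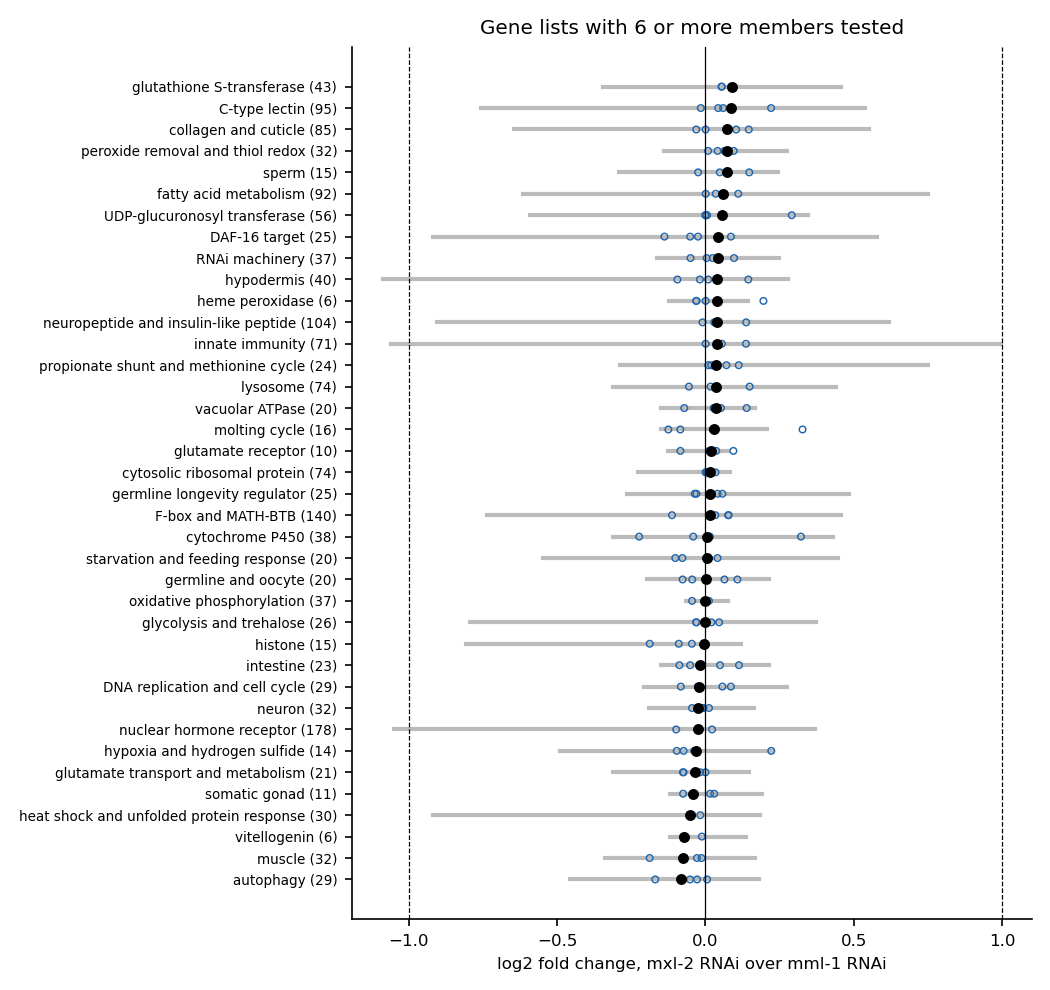
For each list with at least 6 members tested (their number in brackets), the black point is the median log2 fold change of mxl-2 RNAi over mml-1 RNAi, the grey bar spans the lowest to the highest member, and the open circles are the medians of the 4 pairs. All medians lie between -0.08 and 0.09, and the medians of single pairs spread further, as for cytochrome P450 genes from -0.22 in pair 1 to 0.32 in pair 2.

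Genes of the Myc and Mondo network, which share the DNA-binding family of MML-1 and MXL-2, were tested for 5 members, the 2 targets included. The Mad-like gene mdl-1 stood at 323, 146, 108 and 113.5 RPKM on mml-1 RNAi and at 270.4, 82.7, 55.9 and 101 RPKM on mxl-2 RNAi. It was lower in all 4 pairs and the groups overlapped (log2 fold change -0.54, SE 0.15, 95% interval -0.92 to -0.16, limma adjusted p = 0.705). Luc RNAi gave 193 ± 97.1 RPKM (SD, n = 4). The Max-like gene mxl-3, which represses lysosomal lipases in fed worms, stood at 325, 217, 127 and 107 RPKM on mml-1 RNAi and at 342, 112.1, 69.8 and 90.8 RPKM on mxl-2 RNAi (log2 fold change -0.49, 95% interval -0.97 to -0.01, limma adjusted p = 0.705). The partner of MDL-1, mxl-1, had means of 24.7 ± 1.73 and 23.4 ± 2.11 RPKM (SD, n = 4), with a 95% interval of -0.21 to 0.06 for the log2 fold change.

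Genes of glutamate transport and metabolism, which the title of the study points to, had 0 of 21 members called and 21 intervals within 2-fold (median -0.04). The gene glt-5 (chromosome II, 9706481 to 9708885), which encodes a transporter that takes up glutamate, stood at 3.06, 3.86, 2.85 and 4.72 RPKM on mml-1 RNAi and at 2.26, 3.20, 2.06 and 4.65 RPKM on mxl-2 RNAi, with 8.63 ± 2.14 RPKM on Luc RNAi (SD, n = 4). Each pair was lower on mxl-2 RNAi, and the groups overlapped. The difference between the knockdowns was -0.22 (SE 0.10, 95% interval -0.46 to 0.02, limma adjusted p = 0.705). Against Luc RNAi, with which both comparisons are made, the log2 fold change was -1.05 on mml-1 RNAi (limma adjusted p = 0.0587) and -1.27 on mxl-2 RNAi (limma adjusted p = 0.0665). The transporter gene glt-1 was at 264 ± 5.88 and 258 ± 11.7 RPKM (95% interval -0.14 to 0.07). Glutamate dehydrogenase, gdh-1, was at 707 ± 95.9 and 708 ± 77.5 RPKM (SD, n = 4), with an interval of -0.09 to 0.10 and 498 ± 48.2 RPKM on Luc RNAi. The smallest p of the list was that of vglu-2, of the vesicular glutamate transporter family, with 77.2, 50.9, 43.5 and 38.9 RPKM on mml-1 RNAi and 69.5, 42.2, 30.6 and 30.5 RPKM on mxl-2 RNAi (log2 fold change -0.31, limma adjusted p = 0.705). Glutamate receptors had 0 of 10 called, from -0.13 (glc-1) to 0.07 (glc-2).

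The heme peroxidases, enzymes that use peroxide to cross-link cuticle or act in defence, had 0 of 6 members called and 6 intervals within 2-fold. The molting peroxidase gene mlt-7 (chromosome II, 4393007 to 4404850) stood at 21.5, 17.5, 16.16 and 30.3 RPKM on mml-1 RNAi and at 18.3, 22.8, 14.9 and 28.9 RPKM on mxl-2 RNAi. The groups covered nearly the same range, and all 8 libraries lay below the 4 Luc libraries, which stood at 37.7 to 46.9 RPKM. The difference between the knockdowns was -0.01 (SE 0.11, 95% interval -0.27 to 0.25, limma adjusted p = 0.986). Against Luc RNAi the log2 fold change of mlt-7 was -0.94 on mml-1 RNAi, which passed (limma adjusted p = 0.0383), and -0.95 on mxl-2 RNAi, which did not (limma adjusted p = 0.0548). The peroxidase gene skpo-1 had 186 ± 15.2 RPKM on mml-1 RNAi, 206 ± 9.56 RPKM on mxl-2 RNAi and 225 ± 13.8 RPKM on Luc RNAi (SD, n = 4), with a log2 fold change between the knockdowns of 0.14 (95% interval 0.02 to 0.27, limma adjusted p = 0.705). The dual oxidase gene bli-3 was at 18.7 ± 0.662 and 18.3 ± 1.44 RPKM. Among genes that remove peroxide or act in thiol redox, 0 of 32 were called, with 24 log2 fold changes above 0 and 8 below.

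Autophagy genes had 0 of 29 members called, 5 log2 fold changes above 0 and 24 below, with the lowest median of the 38 lists (-0.08) and 28 intervals within 2-fold. Over all genes 53.9% were above 0. The medians of the list in pairs 1 to 4 were -0.03, -0.17, -0.05 and 0.01, so pair 4 was not below 0. The transcription factor gene hlh-30 stood at 77.1, 85.6, 64.2 and 72.8 RPKM on mml-1 RNAi and at 75.5, 76.9, 48.8 and 72.1 RPKM on mxl-2 RNAi (95% interval -0.34 to 0.05). Its values on Luc RNAi were 70.6 ± 9.78 RPKM (SD, n = 4). The autophagosome protein gene lgg-1 was at 2032 ± 393 and 1819.6 ± 325 RPKM (SD, n = 4; interval -0.39 to 0.08). The Beclin gene bec-1 was at 36.7 ± 18.97 and 29.97 ± 17.1 RPKM (log2 fold change -0.29, 95% interval -0.53 to -0.05, limma adjusted p = 0.705). Lysosome genes had 0 of 74 called with 46 above 0 and 28 below, and the 20 subunits of the vacuolar proton pump ran from -0.15 (vha-18) to 0.17 (vha-6).

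Among lists of metabolism, fatty acid genes had 0 of 92 called, 14 with an unadjusted p under 0.05 above 0 and 4 below, beside 4.19% and 2.77% of all genes (median 0.06). The acyl-CoA dehydrogenase gene acdh-1, of the propionate shunt, stood at 95.3, 82.5, 195 and 339.7 RPKM on mml-1 RNAi and at 198, 186, 297 and 384 RPKM on mxl-2 RNAi. It was higher in all 4 pairs, by the smallest factor in number 4 (log2 fold change 0.75, SE 0.17, 95% interval 0.31 to 1.19, limma adjusted p = 0.705), with 32.4 ± 24.9 RPKM on Luc RNAi (SD, n = 4). The acyl-CoA synthetase gene acs-2, of mitochondrial fat oxidation, had 739, 759.8, 461 and 36.8 RPKM on mml-1 RNAi and 736, 368, 295 and 25.8 RPKM on mxl-2 RNAi. Its log2 fold change between the knockdowns was -0.55 (SE 0.16, limma adjusted p = 0.705), and Luc RNAi gave 13.3 ± 11.5 RPKM (SD, n = 4). The yolk protein genes had 0 of 6 called and ran from -0.12 (vit-5) to 0.14 (vit-4). The 37 genes of oxidative phosphorylation ran from -0.07 to 0.08, and the 74 cytosolic ribosomal protein genes from -0.23 (rpl-11.1) to 0.08 (rps-19).

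Lists of defence and detoxification had wide ranges. Innate immunity genes had 0 of 71 called, 9 with an unadjusted p under 0.05 above 0 and 4 below (4.19% and 2.77% of all genes), and 56 intervals within 2-fold. They ran from the antimicrobial peptide gene cnc-11 at -1.06 to the saposin-like spp-9 at 0.996, whose 95% interval was -0.57 to 2.56. The lysozyme gene lys-7 stood at 1590.3, 2817, 1731 and 5491 RPKM on mml-1 RNAi and at 3848, 3539, 2665 and 5827 RPKM on mxl-2 RNAi, with 5956 ± 318 RPKM on Luc RNAi (SD, n = 4). The log2 fold change between the knockdowns was 0.58 (SE 0.19, 95% interval 0.09 to 1.07, limma adjusted p = 0.705). The gene abf-1, which encodes an antibacterial factor, had 10.2 to 14.9 RPKM on mml-1 RNAi and 6.22 to 9.47 RPKM on mxl-2 RNAi. Its groups did not overlap, which held for 0.678% of all genes, and nothing is read from this. Glutathione S-transferases had 0 of 43 called and the highest median of the 38 lists (0.09), with 33 above 0 and 10 below. One of them, gst-4, a known target of the stress factor SKN-1, had means of 299 ± 39.2 and 349 ± 62.01 RPKM (SD, n = 4; log2 fold change 0.22, limma adjusted p = 0.705). C-type lectins had 0 of 95 called (71 above 0 and 24 below), UDP-glucuronosyl transferases 0 of 56 (34 and 22) and cytochrome P450 genes 0 of 38 (19 and 19). The medians of pairs 1 to 4 were 0.06, 0.22, 0.04 and -0.02 for C-type lectins. For UDP-glucuronosyl transferases they were -0.001, 0.29, 0.005 and 0.004, so pair 2 stood out in both lists.

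In tissue lists, collagen and cuticle genes had 0 of 85 called, 15 with an unadjusted p under 0.05 above 0 and 2 below, beside 4.19% and 2.77% of all genes (median 0.07). The medians of this list in pairs 1 to 4 were 0.15, 0.10, 0.0005 and -0.03. The collagen gene col-94 stood at 11.5, 45.4, 61.4 and 117 RPKM on mml-1 RNAi and at 26.2, 74.1, 79.9 and 118 RPKM on mxl-2 RNAi, with close values in number 4. Muscle genes had 0 of 32 called with 6 above 0 and 26 below (median -0.08), where 53.9% of all genes were above 0. The medians of the muscle list in pairs 1 to 4 were -0.19, -0.03, -0.08 and -0.01, so pair 1 stood out. The muscle myosin gene myo-3 stood at 40.5, 42.3, 34.03 and 27.6 RPKM on mml-1 RNAi and at 23.7, 31.5, 29.8 and 27.5 RPKM on mxl-2 RNAi (log2 fold change -0.34, 95% interval -0.65 to -0.03, limma adjusted p = 0.705).

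Marker genes of neurons, the tissue in which this RNAi mainly acts, had 0 of 32 called and 32 intervals within 2-fold, from -0.19 (cho-1) to 0.16 (tbh-1). Whole-body RNA does not show which cells their reads came from. The octopamine synthesis gene tbh-1 stood at 787, 851, 888 and 809 RPKM on mml-1 RNAi and at 874, 956, 1003 and 905 RPKM on mxl-2 RNAi, higher in all 4 pairs with overlapping groups (log2 fold change 0.16, SE 0.03, limma adjusted p = 0.705). Neuropeptide and insulin-like peptide genes had 0 called (66 above 0 and 38 below). In the somatic gonad list, with 0 of 11 called, the gap junction gene inx-9 stood at 39.7 to 40.7 RPKM on mml-1 RNAi and 42.2 to 50.5 RPKM on mxl-2 RNAi. Its groups did not overlap, beside 0.678% of all genes. Known regulators of the longevity of germline-less worms had 0 of 25 called and 25 intervals within 2-fold. Their widest member was daf-36, which acts in the synthesis of the steroid hormone dafachronic acid, with 4.84, 17.01, 19.3 and 26.9 RPKM on mml-1 RNAi and 10.1, 25.9, 25.9 and 27.4 RPKM on mxl-2 RNAi (log2 fold change 0.48, 95% interval 0.12 to 0.85, limma adjusted p = 0.705). Nuclear hormone receptors had 0 of 178 called, 3 with an unadjusted p under 0.05 above 0 and 10 below, against 4.19% and 2.77% over all genes.

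The genes called against Luc RNAi in either knockdown were then compared between the knockdowns. Against Luc RNAi, 24 genes (0.191% of 12581) were called on mxl-2 RNAi, 8 higher (0.0636%) and 16 lower (0.127%), by limma within pairs. On mml-1 RNAi 60 genes (0.477% of 12591) were called, 14 higher (0.111%) and 46 lower (0.365%). These counts rest on single pairs, with 23, 5, 0 and 86 genes on mxl-2 RNAi and 1, 0, 0 and 242 on mml-1 RNAi when pairs 1 to 4 were left out in turn, and 13 and 2 without the pairing. Both comparisons share the Luc libraries, and the genes were chosen in the knockdown libraries compared here, so what follows is a description. Of the 72 genes called in either, 68 were tested between the knockdowns and 59 (86.8%) had a 95% interval within 2-fold, a lower share than the 95.1% of all genes. Their log2 fold changes of mxl-2 RNAi over mml-1 RNAi ran from -1.28 (fipr-22) to 0.69 (F49E12.9), and the median size was 0.21, beside 0.08 over all genes.

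The examples from this set were chosen after their values were seen. The gene slcf-2 (chromosome X, 3393862 to 3397657) stood at 10.5, 9.43, 10.02 and 9.67 RPKM on Luc RNAi, at 1.71, 1.63, 2.11 and 2.94 RPKM on mml-1 RNAi and at 2.17, 2.33, 1.56 and 2.19 RPKM on mxl-2 RNAi. Both knockdowns lay below every Luc library and overlapped each other, with a difference between them of 0.00 (SE 0.15, 95% interval -0.38 to 0.38). F41C3.1 (chromosome II, 4752307 to 4752991) stood at 3.65 ± 0.926 RPKM on Luc RNAi, 24.8 ± 10.4 on mml-1 RNAi and 27.3 ± 9.52 on mxl-2 RNAi (SD, n = 4), with a difference between the knockdowns of 0.15 (95% interval -0.07 to 0.38). For F23F12.12 the means were 587, 102 and 88.9 RPKM in the same order. For dpyd-1, which starts the breakdown of pyrimidines, they were 31.7, 56.8 and 57.01 RPKM, with an interval between the knockdowns of -0.14 to 0.14. For the trehalose synthesis gene tps-2 the means were 132, 71.2 and 73.1 RPKM, and for the proteasome subunit gene pas-6 they were 150.5, 92.5 and 92.6 RPKM.

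In other genes of the set the mean on mxl-2 RNAi lay between the means on Luc RNAi and mml-1 RNAi. Of the 72 genes, 60 were called on mml-1 RNAi, a choice that by itself favours this order. B0496.11 and F35F10.5 were called on mml-1 RNAi alone and were also named above for their p between the knockdowns. For some genes, such as C07B5.8 and F23F12.12, the mean on mxl-2 RNAi lay further from Luc RNAi instead. B0496.11 was at 1.62 ± 0.110 RPKM on Luc RNAi, 4.39 ± 1.06 on mml-1 RNAi and 2.37 ± 0.550 on mxl-2 RNAi (SD, n = 4). F35F10.5 was at 28.8 ± 8.67, 17.2 ± 5.29 and 24.7 ± 4.29 RPKM in the same order, and F44A2.7 at 22.9 ± 10.9, 11.6 ± 6.46 and 16.37 ± 7.998 RPKM. The pantothenate kinase gene pnk-1, for the first step of coenzyme A synthesis, was at 502 ± 97.9, 321 ± 59.9 and 411 ± 72.6 RPKM, with a difference between the knockdowns of 0.36 (95% interval 0.15 to 0.57, limma adjusted p = 0.705). The glucuronosyl transferase gene ugt-41 was at 316 ± 66.6, 85.1 ± 24.4 and 102 ± 20.6 RPKM, with a difference of 0.29 (95% interval 0.08 to 0.51).

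**Figure D5:**
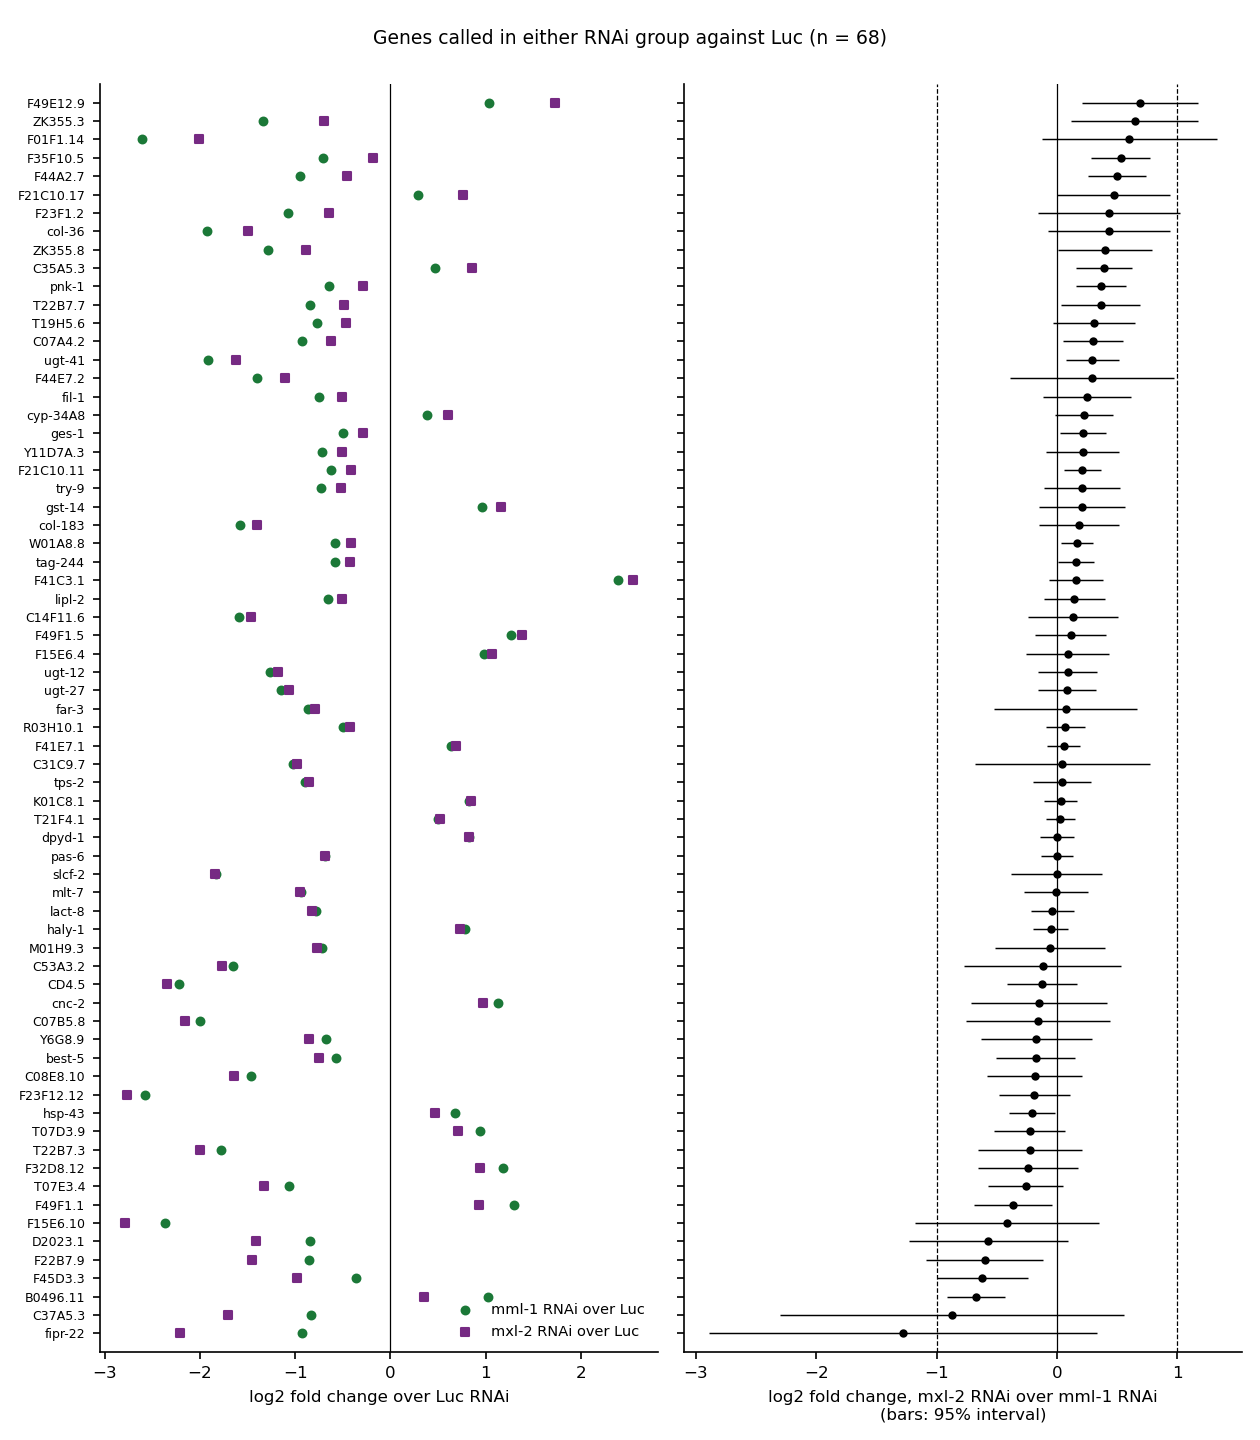
The 68 genes called in either knockdown against Luc RNAi and tested between the knockdowns, ordered by the difference between them. The left panel gives the log2 fold change over Luc RNAi on mml-1 RNAi and on mxl-2 RNAi, and the right panel the log2 fold change of mxl-2 RNAi over mml-1 RNAi with its 95% interval, which lies between the dashed lines of a 2-fold change for 59 genes.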

How the data were processed

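The authors deposited tables of RPKM values, 1 column a library. Beside them stand their own log2 fold changes, p-values, false discovery rates and a rank score (none of these used here), per the file headers. The submitters' processing notes name bcl2fastq, TopHat2 2.1.1 and GRCh38, a human build; which build and counter gave these worm values is not stated in the sources used here. The Luc columns shared by the tables were identical (largest difference 0.0), so the tables were set on 1 scale. Each lists 42048 genes and loci. All 25332 above 0 in any library came out as whole reads (tolerance 0.001), used for depth and for voom. Strand use is not given, so overlapping genes are uncertain. Names were matched to Ensembl release 115 of WBcel235 (38832 by symbol, 1425 by sequence name, 1791 unmatched), from which positions come.

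The test was limma 3.58.1 in R 4.3.3 (lmFit, eBayes with trend and robust variances, 2-sided) on log2(RPKM + 1), with genes kept at a mean RPKM of 1 or more in the 8 libraries, replicate number as a block and Benjamini-Hochberg adjustment over all genes tested. Fold changes of low genes are understated on this scale. Same-numbered libraries were taken as pairs by the rule set for this comparison, as the labels number the libraries 1 to 4 in both groups. The correlations of their deviations from the group means were 0.61, 0.22, 0.46 and 0.68. The fit was checked on simulated data. Named genes were the called genes of each direction, filled up to 15 by smallest p among those of 1 direction in all 4 pairs, leaving out piRNA, tRNA, rRNA, snRNA and snoRNA loci and the 11 names turned into dates; list members were named by smallest p or widest change. Outside that rule, glt-5, glt-1, gdh-1, mlt-7, bli-3, hlh-30, lgg-1, bec-1, acs-2, lys-7, abf-1 and gst-4 were chosen after their values were seen. The members and lists were chosen with earlier results of these data known. Alternatives covered scaling, pseudocount, filters, block, left-out libraries, a fit of 12 libraries and voom. The precision of a value follows its reads, with 1 read worth 0.0398 to 0.0520 RPKM for 1 kb.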

Additional observations from a re-analysis of the deposited data

Results flagged for a closer look

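In 8 of 80 groups of 4 libraries (the 2 knockdown groups for 40 genes: the 30 named by rule, the 2 targets and 8 more given beside the control), 1 library stood far from the other 3. The rule flags about 1 in 20 groups of independent, normally distributed values. These RPKM values are linked by replicate number, and most of the genes were chosen by p. The count is therefore not read against that rate. Reads of mml-1 stood at 91.5 RPKM in mml-1 RNAi 2, where the others of the group held 22.9 to 28.9 RPKM. Reads of mxl-2 stood at 308 RPKM in mml-1 RNAi 3 (others 25.4 to 26.98 RPKM) and at 733 RPKM in mxl-2 RNAi 3 (others 29.3 to 90.7 RPKM). The Patched-related gene ptr-22 stood at 32.2 RPKM in mml-1 RNAi 1 (others 0.597 to 2.78 RPKM) and at 10.6 RPKM in mxl-2 RNAi 1 (others 0.311 to 0.601 RPKM), and ptr-8 at 66.5 RPKM in mxl-2 RNAi 1 (others 13.6 to 19.9 RPKM). The gene F42G4.5 stood at 27.6 RPKM in mml-1 RNAi 4 (others 16.411 to 18.2 RPKM), and the low value was that of ttr-6 in mml-1 RNAi 1, at 440 RPKM (others 544 to 562 RPKM).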

How the results depend on the processing

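Between the knockdowns, 0 genes were called under 19 of 20 alternatives and 1 under voom (chil-28, adjusted p = 0.0404); leaving out 1 pair or 1 library gave 0 each time. Without the replicate block 0 genes were called. The share of intervals within a 2-fold change was lower there, 11173 of 12540 (89.1%), against 95.1% in the main fit. With no filter on low values, where more genes were tested, such intervals numbered 21425 of 23121 (92.7%). With a pair or library left out they ran from 10787 of 12570 (85.8%) to 11849 of 12474. The lowest of these was a fit without the block that left out mml-1 RNAi 3. Of 631 values of the named genes and of the targets mml-1 and mxl-2, 630 kept their direction and side of the threshold. The other (chil-28 by voom) passed it, and 0 reversed. In the main fit their limma adjusted p was 0.527 or more, so keeping the side of the threshold says little. For mxl-2 the log2 fold change fell to 0.03 in 1 alternative. The named genes were chosen for 1 direction in all 4 pairs, so their sign with a pair or library left out shows nothing of stability. Of 820 medians of lists 55 moved, and of 1352 values of genes called against Luc RNAi 33 moved. Against Luc RNAi, alternatives chosen after seeing the data gave 13 calls on mxl-2 RNAi and 2 on mml-1 RNAi without the replicate block, and 0 to 86 and 0 to 242 with a pair left out; the cause was not tested. The planned tests by edgeR and DESeq2 were not run, and voom was the 1 test made on the recovered reads. Depth limits piRNA loci and genes of a few reads.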
